A study of Drosophila melanogaster with 4 samples.

Results

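The lysozyme genes *LysB*, *LysC*, *LysD*, *LysE*, *LysP*, *LysS* and *LysX* lie close together on chromosome 3L of *Drosophila melanogaster*, in the region 61F. These 7 genes were chosen by their symbols in the platform annotation, out of 12057 genes that the probes of the arrays name, and each had 1 probe. Of the 7 genes, 6 had a value in both biological replicates and could be tested, as could 10041 genes in all, while *LysP* had values in replicate 2 alone.

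Lysozymes of this family cut the peptidoglycan of bacterial cell walls. In the fly, the genes of the cluster are best known as digestive genes, expressed mainly along the gut of a larva that feeds on microbes, and they differ in the part of the digestive tract and in the stage at which they are used. LysB, LysC, LysD and LysE are close copies of one another, LysS is known from the gastric caeca of larvae, LysP from the salivary gland of adults and LysX from the end of larval life.

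Whole larvae of the third instar with the genotype w1118;+;trxE3/trxB11 were compared with whole larvae of the same instar of the isogenic wild-type strain w1118;+;+, staged by bromophenol blue in the food. The gene *trx* encodes a histone methyltransferase of the trithorax group, and the mutant larvae carry trxE3 on one homolog and trxB11 on the other. RNA of 2 mutant extractions was hybridized on 2 arrays each with the dyes swapped, always against RNA pooled from wild-type larvae. The 4 arrays are thus 2 biological replicates, and no test takes in how wild-type larvae vary. Whether the extractions came from separate cultures is not stated, and a p-value then measures only the spread between extractions, which may be technical. In the mutant stocks the sex chromosomes and the second chromosome came from the isogenic line. The third chromosome, which carries the lysozyme cluster as well as *trx*, is not listed as transferred in the methods, so a difference at the cluster due to *trx* and one due to other sequence on that chromosome cannot be told apart.

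Values are given as the log2 of the mutant level over the wild-type level, so that 1 is a 2-fold higher and -1 a 2-fold lower transcript level in the mutant. The base of the deposited log ratios is not given in the sources used here and was taken as 2, and every fold rests on this. The ratios hold no signal intensities, and levels of different genes were therefore not compared. In whole larvae a change in the number of cells of a type and a change of RNA per cell cannot be told apart. The probe of *trx* itself had 0.22 in replicate 1, on 1 array, and 0.13 and 0.28 in replicate 2 (adjusted p = 0.0859, limma). Where this probe lies relative to the mutations is not given in the sources used here, so it does not check the labels. Between 11199 and 12775 of 16416 spots had a value on an array. Of the 10041 genes tested, 1.57% were called higher and 2.52% lower (4.09% in either direction), a call being an adjusted p under 0.05 in limma and a change of at least 2-fold.

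In the mutant larvae 3 of the 6 genes tested were called higher, *LysD* by 6.001-fold, *LysC* by 7.13-fold and *LysS* by 8.04-fold. *LysE*, one of the close copies, was called lower, by 2.66-fold, and *LysB* and *LysX* were not called. The median log2 ratio of the 6 genes was 2.45, against -0.02 over all genes tested. With a 2-fold change on every array in place of the p-value, 4 of the 6 genes were higher, *LysB* being added, and 1 was lower. By that rule 1.32% of all genes tested were higher and 1.75% lower (3.08% in either direction). With an adjusted p under 0.05 and no minimum fold, the 3 genes were higher and *LysE* lower as before, against 6.49% of all genes tested higher and 8.18% lower (14.7% in either direction).

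**Figure D1:**
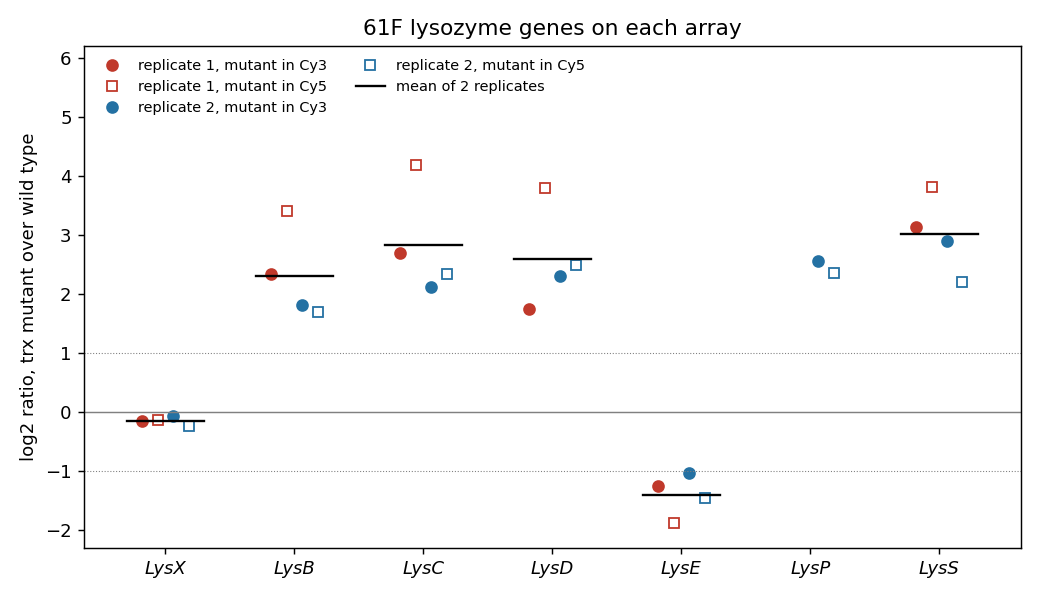
Log2 ratio of trx mutant over wild type on each of 4 arrays for the 7 lysozyme genes in chromosomal order. Color gives the biological replicate, marker shape the dye of the mutant, the black line the mean of 2 replicates, and dotted lines a 2-fold change. *LysB*, *LysC*, *LysD* and *LysS* lie above the upper dotted line on every array, *LysE* lies below the lower one, *LysX* lies near 0 and *LysP* has points in replicate 2 alone.

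*LysS* had the highest mean of the cluster. Its log2 ratios were 3.14 and 3.80 in replicate 1 and 2.89 and 2.20 in replicate 2, so that all 4 arrays showed at least a 4-fold rise. The mean of 3.01 (SE 0.281, 95% confidence interval 2.08 to 3.94, adjusted p = 0.0323, limma, n = 2 biological replicates) is an 8.04-fold higher transcript level in the mutant, with an interval from 4.22-fold to 15.3-fold. Among the genes tested it ranked 27 from the highest.

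Among the close copies, *LysC* had log2 ratios of 2.70 and 4.18 in replicate 1 and of 2.12 and 2.34 in replicate 2. Its mean was 2.83 (SE 0.363, 95% confidence interval 1.63 to 4.03, adjusted p = 0.0447, limma, n = 2), and it ranked 36. The array with the mutant in Cy5 in replicate 1 was well above the other 3, and without the array with the mutant in Cy3 in replicate 1 *LysC* was no longer called, with a log2 ratio of 3.20 and an adjusted p of 0.0617. In the current gene table *LysC* is annotated as a pseudogene, whose annotated span overlaps that of *LysD*.

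*LysD*, a gene of the midgut, had log2 ratios of 1.75 and 3.80 in replicate 1 and of 2.30 and 2.49 in replicate 2. The 2 arrays of replicate 1 lay on either side of those of replicate 2, and the replicate means were close, at 2.78 and 2.40. This gave a mean of 2.59 and the smallest standard error of the 4 genes with ratios above 2 (SE 0.123, 95% confidence interval 2.18 to 2.99, adjusted p = 0.0193, limma, n = 2). The standard error is taken between replicate means and thus leaves out the difference of 2.05 between the dye-swapped arrays of replicate 1.

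*LysB* had log2 ratios of 2.33 and 3.40 in replicate 1 and of 1.80 and 1.69 in replicate 2. Every array had it more than 3-fold higher in the mutant, and the mean of 2.31 is 4.94-fold (SE 0.338, 95% confidence interval 1.18 to 3.43), but the adjusted p of 0.0524 in limma missed the threshold. Over 14 alternative fits and call rules the adjusted p ranged from 0.00338 to 0.0669, and *LysB* was called higher in 8 of them. These 8 include the fits with the 4 arrays taken as independent, with a dye term and with replicate as a random block. Such fits count dye swaps of the same RNA as separate samples. The correlation within blocks was -0.112, so the block did not raise the adjusted p in limma (0.00338, against 0.004 as independent). The rank of *LysB* among the genes tested was 64.

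*LysE*, the remaining copy, was lower on every array, with log2 ratios of -1.25 and -1.88 in replicate 1 and of -1.04 and -1.47 in replicate 2. The mean of -1.41 is a 2.66-fold lower level in the mutant (SE 0.105, 95% confidence interval -1.76 to -1.06, adjusted p = 0.0271, limma, n = 2), and it ranked 155 from the lowest. *LysE* lies in chromosomal order between *LysD* and *LysP*. On each array the ratio of *LysD* exceeded that of *LysE*, by 3.004 and 5.68 on the log2 scale in replicate 1 and by 3.34 and 3.95 in replicate 2. This difference between 2 genes was not tested. The sequences of the probes were not used here, so how far a probe of *LysB*, *LysC*, *LysD* or *LysE* also binds transcripts of the other copies was not tested.

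*LysP* had log2 ratios of 2.56 and 2.36 on the arrays of replicate 2 and no value on those of replicate 1. Its mean in replicate 2 was 2.46, close to that of *LysD* (2.40) and *LysS* (2.54) in the same replicate. As this is 1 biological replicate, no test was made.

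*LysX* had log2 ratios of -0.16 and -0.14 in replicate 1 and of -0.062 and -0.25 in replicate 2. Its mean was -0.15 (SE 0.0471, 95% confidence interval -0.31 to 0.0035, adjusted p = 0.135, limma, n = 2). The interval does not reach a 2-fold change in either direction. The ratio of *LysD* exceeded that of *LysX* by 1.91 to 3.94 over the 4 arrays.

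The size of the ratios differed between the replicates. *LysB*, *LysC* and *LysS* had the larger ratio in replicate 1, by 1.12, 1.20 and 0.93 on the log2 scale, and *LysD* by 0.38. The median absolute difference between the replicates was 0.098 over all genes tested and 0.692 over 272 genes with a mean ratio of 2-fold or more, in 67.6% of which replicate 1 had the larger ratio. In replicate 1 the array with the mutant in Cy5 exceeded its dye swap by 1.06 for *LysB*, 1.48 for *LysC*, 2.05 for *LysD* and 0.67 for *LysS*, and in replicate 2 the difference was -0.12, 0.22, 0.18 and -0.70. Over 7262 genes with 4 values the median absolute difference between dye swaps was 0.121 in replicate 1 and 0.137 in replicate 2. It was not taken over the genes with a mean ratio of 2-fold or more alone. In replicate 1 the midgut digestive enzymes called higher (below) had differences of 1.92 (*Jon65Aiv*), 1.58 (*Jon25Bii*) and 0.09 (*Mal-A5*). *LysE* was lower with the mutant in Cy5 in both replicates, by 0.63 and 0.43.

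**Figure D2:**
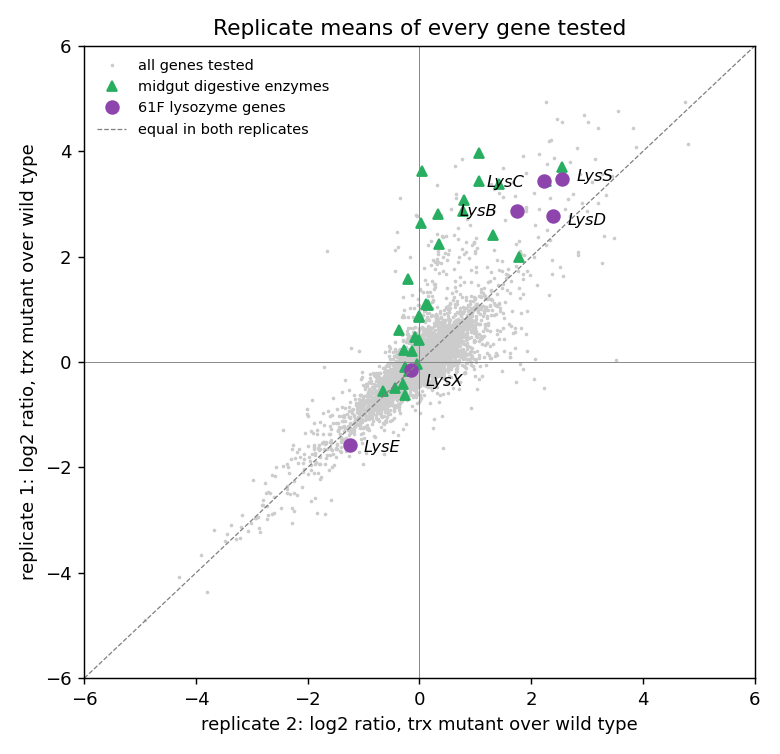
Mean log2 ratio of trx mutant over wild type in replicate 1 (vertical) against replicate 2 (horizontal) for 10041 genes. Purple points are the 6 lysozyme genes tested and green triangles the 30 midgut digestive enzymes tested, of which many are high in replicate 1 and near 0 in replicate 2, while *LysB*, *LysC*, *LysD* and *LysS* are above 1.7 in both.

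Since the genes of the cluster are mainly used in the gut, the enzymes that digest food in the larval midgut (Jonah proteases, trypsins, maltases and amylases) are of interest as markers of that tissue. Of 38 listed genes 30 were tested. In limma 3 were called higher and 0 lower, against 1.57% and 2.52% of all genes tested. The 3 were *Jon65Aiv*, with a log2 ratio of 3.13 (adjusted p = 0.0378), *Jon25Bii*, with 2.85 (adjusted p = 0.0439), and *Mal-A5*, with 1.88 (adjusted p = 0.0192). Without the array with the mutant in Cy3 in replicate 1 only 1 of the 30 was called higher, as were 132 of all genes. With the 4 arrays taken as independent 8 of the 30 were, as were 240 of all genes.

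The median of the 30 enzymes was 1.10 in replicate 1, with 23 of them above 0, and 0.015 in replicate 2, with 15 above 0. *LysB*, *LysC*, *LysD* and *LysS* had means between 2.78 and 3.47 in replicate 1 and between 1.74 and 2.54 in replicate 2. In both replicates these lay within the range of the enzymes, which was -0.62 to 3.96 in replicate 1 and -0.66 to 2.56 in replicate 2. The part of a changed amount of midgut tissue or of its enzymes in the ratios of the lysozyme genes was not tested.

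Markers of other tissues were measured in the same way. The counts called below stand against 1.57% of all genes tested called higher and 2.52% lower. Of the genes of salivary gland glue and related proteins, 6 were tested and 1 was called higher, *Sgs5*, a glue gene. It had 4.56 in replicate 1 and 3.01 in replicate 2 on 1 array each (adjusted p = 0.0431, limma). Both arrays had the mutant in Cy3, so a dye effect cannot be told apart from the change. The list's median was 0.14, and 3 of the 6 lay above 0, the lowest at -1.18. In limma 0 were called lower. With the 4 arrays taken as independent, with replicate as a random block and with a dye term 1 was. These fits count dye swaps as separate samples. Without either of its 2 arrays *Sgs5* could not be tested. Of the fat body storage genes 3 were tested and 1 was called higher, *Lsp2*, with a mean of 3.98 (adjusted p = 0.0142), and the list's median was 1.08. Of the hemocyte genes 6 were tested and 0 were called in limma, at a median of -0.52, and 1 of the 6 was called lower without the array with the mutant in Cy3 in replicate 2. Their part in the ratios of the lysozyme genes was not tested.

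Beside the cluster, the genome carries other lysozyme genes, which encode relatives of the same fold or of the invertebrate type. Of 11 such genes on the platform 9 were tested, and their median log2 ratio was -0.10. Of the 9, 0 were called higher and 1 lower, against 1.57% and 2.52% of all genes tested. The gene that fell was *CG7798*, with log2 ratios of -1.79 and -1.503 in replicate 1 and of -2.65 and -1.89 in replicate 2 (mean -1.96, adjusted p = 0.0338). *CG8492* had 0.77 and 1.16 in replicate 1 and 1.89 and 1.43 in replicate 2. It was above 0 on every array, at a mean of 1.31, but was not called (adjusted p = 0.0592). It was called higher with the 4 arrays taken as independent, with replicate as a random block and with a dye term, fits that count dye swaps as separate samples. Leaving out either array with the mutant in Cy3 also led to a call.

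The remaining 7 tested genes of this list had smaller ratios. The lowest was that of *CG30062*, at -0.46 averaged over its 2 arrays, both with the mutant in Cy3 (adjusted p = 0.035, limma). It was followed by *CG16756* with -0.36 (adjusted p = 0.0451) and *CG6435* with -0.32 (adjusted p = 0.0531). *CG16799*, *CG6426*, *CG14823* and *CG6429* lay between -0.10 and 0.13, with adjusted p values from 0.228 to 0.587. *CG6421* had a single value, -0.17 in replicate 2, and *CG11159* had none.

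**Figure D3:**
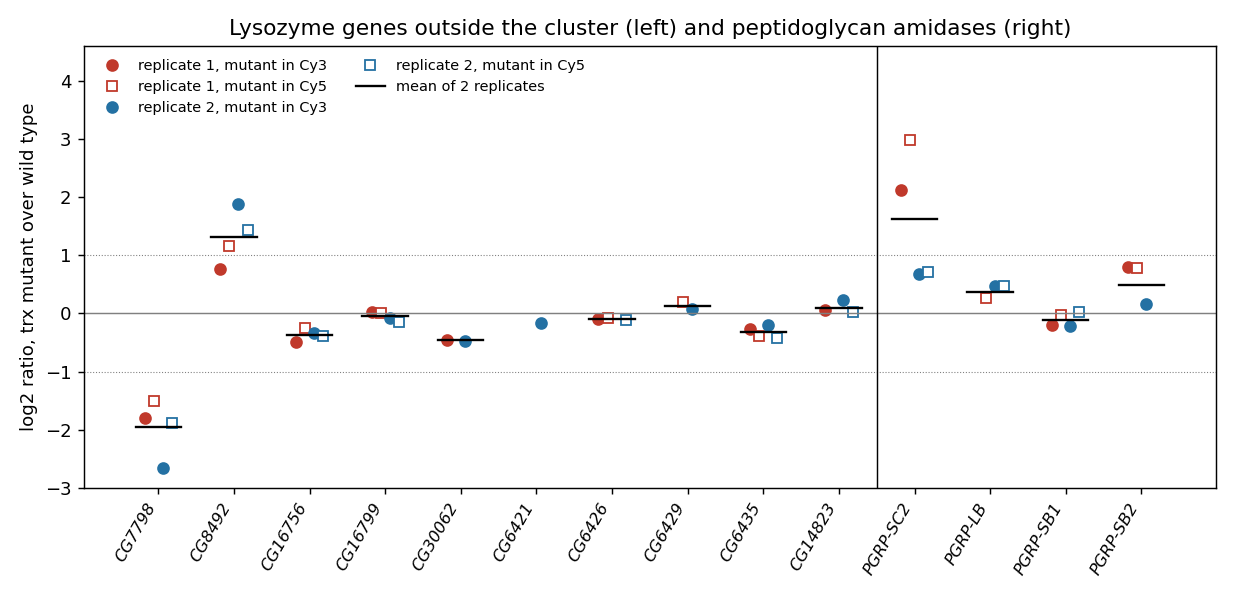
Log2 ratio of trx mutant over wild type on each array for 10 lysozyme genes outside the 61F cluster with a value (left of the vertical line) and 4 genes of catalytic peptidoglycan recognition proteins (right). Colors, markers and lines are as in the plot of the cluster genes by array. *CG7798* lies below a 2-fold fall on every array, and *PGRP-SC2* is high in replicate 1 and below a 2-fold rise in replicate 2.

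Some peptidoglycan recognition proteins are amidases, which cut peptidoglycan at another bond than lysozymes do. Of 4 such genes tested, 0 were called in limma, against 4.09% of all genes tested in either direction. *PGRP-SC2*, a gene of the gut, had log2 ratios of 2.12 and 2.98 in replicate 1 and of 0.68 and 0.71 in replicate 2, so that replicate 1 was far above replicate 2 (mean 1.62, adjusted p = 0.155). It was called higher with the 4 arrays taken as independent and with replicate as a random block, but not with a dye term. These fits count dye swaps as separate samples, and the correlation within blocks was -0.112. *PGRP-SB2* had 0.80 and 0.79 in replicate 1 and 0.17 in replicate 2, on 1 array (adjusted p = 0.189). *PGRP-LB*, with a mean of 0.37 (adjusted p = 0.0769), and *PGRP-SB1*, with -0.11 (adjusted p = 0.215), were not called either. The other arm of antibacterial defense, the secreted antimicrobial peptides, had 5 genes tested. In limma 2 were called higher and 0 lower, against 1.57% and 2.52% of all genes tested. The 2 were *Def*, with a mean of 2.88 (adjusted p = 0.0195), and *AttB*, with 2.25 (adjusted p = 0.0192). The list's median log2 ratio was 1.60, at 2.17 in replicate 1 and 1.82 in replicate 2, and all 5 lay above 0 in both. With the 4 arrays taken as independent 4 of the 5 were called higher, as were 240 of all genes. The part of the antimicrobial peptides in the ratios of the lysozyme genes was not tested.

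Most genes around the cluster were not called. Between *LysX* and *LysB* the gene table has 4 genes that start there, and no gene other than a lysozyme gene starts between *LysB* and *LysS*. These 4 genes are *Aplip1*, *mwh*, *meep* and *CG9119*, and their log2 ratios lay between -0.09 and 0.06, with adjusted p values between 0.368 and 0.836 in limma. The annotated span of *mwh*, which acts in the formation of wing hairs, holds the 6 genes from *LysB* to *LysS*, and its ratio was -0.07 (SE 0.0471, adjusted p = 0.368, 3 arrays). These 4 genes were named after their values were seen.

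On the LysX side, 0 of the 10 nearest tested genes were called, and their log2 ratios lay between -0.71 and 0.34. The lowest was that of the nearest of them, *CG13912*, with values between -0.79 and -0.65 on the 4 arrays (adjusted p = 0.0272). On the LysS side 0 of the 10 nearest tested genes were called higher and 2 lower, against 1.57% and 2.52% of all genes tested. *galene*, the nearest tested gene, had log2 ratios of -1.49 and -1.03 in replicate 1 and of -1.89 and -1.26 in replicate 2 (mean -1.42, adjusted p = 0.027). *tfc* had -2.09 and -1.77 in replicate 1 and -2.10 and -1.49 in replicate 2 (mean -1.86, adjusted p = 0.0192). After *tfc* and *galene* the lowest was *Acat2*, with values between -1.48 and -0.73 on the 4 arrays, which was not called. With the 4 arrays taken as independent, with replicate as a random block and with a dye term, 3 genes were called lower on this side. These fits count dye swaps as separate samples. The same count of 3 was found with all 4 values required and without the array with the mutant in Cy5 in replicate 1. The medians of the 2 flanks were 0.12 and -0.058.

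**Figure D4:**
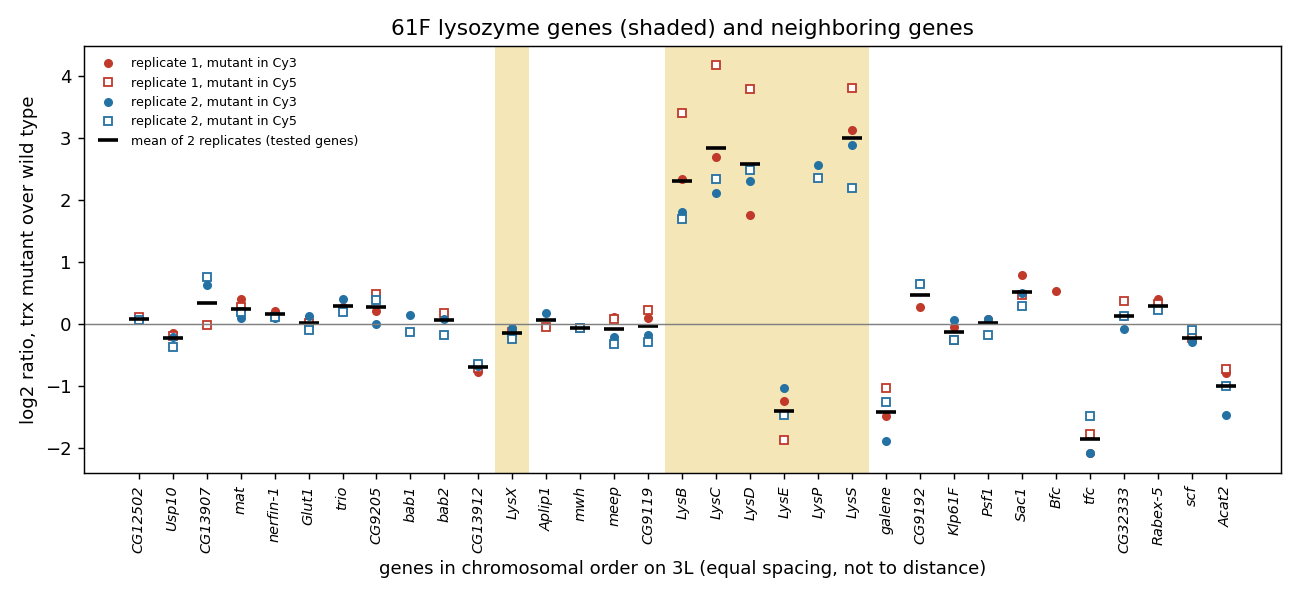
Log2 ratio of trx mutant over wild type for the genes from 10 tested genes before *LysX* to 10 tested genes after *LysS*, in chromosomal order with equal spacing. Shaded columns are the 7 lysozyme genes, points are arrays and black dashes the mean of 2 replicates. The ratios above 1.6 all belong to *LysB*, *LysC*, *LysD*, *LysP* and *LysS*, and the genes called lower are *LysE*, *galene* and *tfc*.

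For each lysozyme gene with 4 values, the gene outside the cluster with the most similar ratios was sought among 7256 genes with 4 values, as the one with the smallest root mean square difference of log2 ratios. This describes 4 arrays that share the wild-type RNA. For *LysC* it was the midgut protease gene *Jon25Bii*, with a difference of 0.044 and log2 ratios of 2.65 and 4.23 in replicate 1 and of 2.17 and 2.35 in replicate 2, whereas the next gene, *Jon65Aiv*, had a difference of 0.34. For *LysB* it was *CG11300* (0.226), for *LysD* *Eig71Ee* (0.411), a gene of the late ecdysone-induced group, and for *LysS* *Def* (0.297), which encodes defensin, with *CG14302* tied at that precision. For *LysE* it was *Pfdn4* (0.121), which encodes a prefoldin subunit, and for *LysX* *t* (0.0173), whose ratios lay near 0 as those of most genes did. Among the cluster genes themselves, *LysB*, *LysC*, *LysD* and *LysS* differed from one another by 0.488 to 0.767 and from *LysE* by 3.83 to 4.48.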

How the data were processed

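Transcript ratios of whole larvae were measured on 4 two-color spotted arrays of long oligonucleotides. The authors scanned them with GenePix Pro, removed spots below quality thresholds, corrected background with normexp, normalized with OLIN, scaled the arrays to one another, and deposited log ratios per spot, taken here as log2 (OLIN and limma versions: not given in the sources used here). Array medians lay between -0.033 and -0.012. Arrays of opposite dye orientation correlated above 0 (Pearson's r across spots at least 0.71), so no sign was turned. The direction was checked against the study's gene lists: 190 of 190 tested genes listed as over-expressed were above 0, and 231 of 232 listed as under-expressed were below 0. The lists were drawn by the authors at a 2-fold change, and the 5th percentile of their genes' absolute mean ratio was 0.885 and 1.03, near the value of 1 that 2-fold has in log2 (the deposited base is not given in the sources used here). These lists come from the same samples.

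Genes were assigned from the platform annotation, in which 13163 probes have 1 gene (102 with several or none and 3151 unlisted were left out), and 12673 matched the NCBI gene table (Release 6 plus ISO1 MT), which gave names and gene order. Its coordinates are of another assembly than the study's and are not printed. Probes of a gene and then dye-swapped arrays were averaged. A replicate with a value on 1 array was taken from that array, so its dyes were not balanced. The mean of both replicates was tested against 0 with limma 3.58.1 (R 4.3.3, prior degrees of freedom 1.80, prior SD 0.083) and Benjamini-Hochberg adjustment over 10041 genes, and standard errors and 95% intervals use the moderated variances. Depth behind a ratio is unknown, and the number of arrays limits precision.

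The 7 genes, the gene lists and the tests were chosen with earlier results of these data known. Named were the 7 genes, all measured lysozyme and catalytic peptidoglycan recognition genes of the lists, up to 5 called genes of each other list, the nearest and any called flanking genes, *trx*, and the most similar gene of each member. Alternatives changed replication, dye, probe averaging, missing values, centering, variance moderation and the call rule, and left out arrays or replicates.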

Additional observations from a re-analysis of the deposited data

Results flagged for a closer look

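Among 26 named genes with 4 values, 1 had an array far from its others by Dixon's test. This was *Jon65Aiv*, a midgut protease gene, with 4.66 on the array with the mutant in Cy5 in replicate 1, where the gap to the next array was 0.901 of its range. Chance alone marks about 1 in 20 genes, and the 4 arrays are not independent samples.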

How the results depend on the processing

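*LysD* and *LysS* were called higher and *LysE* lower in all 14 alternative fits and call rules, and *LysX* was called in none of them. *LysC* was called in 13. The number of the 6 tested lysozyme genes called higher ranged from 2, without the array with the mutant in Cy3 in replicate 1, to 4, and 1 was lower throughout. The number of all genes called higher was 240 with the 4 arrays taken as independent, and with no minimum fold 652 were called higher and 821 lower. Without replicate 1 the median log2 ratio of the 6 genes was 1.99 and without replicate 2 it was 2.82, each a value of 1 replicate with no test. With each array's median subtracted it was 2.47. No paired analysis was possible because the series has 1 group, measured as a ratio to a common pool. The fit over 2 replicate means adds a variance pooled across genes, with a prior SD of 0.083. The differences between replicates were far larger for *LysB*, *LysC* and *LysS*, at 1.12, 1.2 and 0.93. Their standard errors thus rest mostly on the difference between 2 replicate means. A ratio holds no signal over background.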
